A study of Homo sapiens with 9 samples.

Results

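The miR-181 family was followed through miTRAP, an assay that traps miRNAs on a bait RNA, with the 3'UTR of PD-L1 as bait. PD-L1, encoded by CD274, is the checkpoint ligand with which tumor cells restrain T cells. The family comprised 6 mature miRNAs chosen by name, which were hsa-miR-181a-5p, hsa-miR-181b-5p, hsa-miR-181c-5p, hsa-miR-181d-5p, hsa-miR-181a-3p and hsa-miR-181a-2-3p (hsa- is left out below), out of 2652 miRNA names in the count table. Small RNA was sequenced in 9 libraries of the established ovarian cancer line ES-2, and all 9 carried the labels WT and untreated. The input group was the cell lysate before trapping, the MS2 control group was RNA retained by a control bait of MS2 loops, and the PD-L1 3'UTR group was RNA retained by the 3'UTR bait (called the PD-L1 bait below), with 3 replicates each. The amounts of the baits differed per the study's methods, so bait sequence and bait amount cannot be told apart. The study's methods state for its experiments in general that they were done in biological replicates, whereas the labels of these libraries number replicates without saying what separates them, so the p values below measure the spread between these libraries.

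A miRNA hairpin yields a guide strand, which enters Argonaute and pairs with target RNAs mainly through its seed, and a partner strand from the other arm, which is usually degraded. The -5p strands are the guides of the miR-181 hairpins and share a seed, and the -3p strands are their partners. The family is best known from lymphocytes, where miR-181a tunes the sensitivity of the T cell receptor in developing thymocytes.

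The sequences below show which letters the members share, because reads of near-identical miRNAs may be exchanged in counting. They are RefSeq mature sequences on GRCh38.p14, 5′ to 3′, with the seed, bases 2 to 8, in capitals, and a sequence was found for all 6 members.
miR-181a-5p: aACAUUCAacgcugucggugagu
miR-181b-5p: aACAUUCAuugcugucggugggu
miR-181c-5p: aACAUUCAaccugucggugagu
miR-181d-5p: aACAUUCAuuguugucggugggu
miR-181a-3p: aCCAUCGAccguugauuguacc
miR-181a-2-3p: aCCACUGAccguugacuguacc

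The 4 guide strands had the same seed and differed behind it. Counted from the 5′ end, miR-181b-5p differed from miR-181a-5p by A9U, C10U and A21G, and miR-181d-5p differed from miR-181b-5p by C12U alone. MiR-181c-5p, of 22 bases, was 1 edit away from miR-181a-5p, of 23 bases. The -3p strands had seeds of their own, and miR-181a-2-3p differed from miR-181a-3p by U5C, C6U and U16C. In the RefSeq set the guide seed occurred in only 1 miRNA outside the family, miR-4262, which had 0 counts in all 9 libraries.

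The hairpins lie in 3 clusters. MiR-181a-5p is encoded at chr1:198859108-198859130 on the minus strand, in MIR181A1, and at chr9:124692480-124692502 on the plus strand, in MIR181A2. MiR-181b-5p lies beside it in both clusters, at chr1:198858925-198858947 (minus, MIR181B1) and chr9:124693725-124693747 (plus, MIR181B2). The partner strands tell the copies apart, since miR-181a-3p comes from MIR181A1, at chr1:198859069-198859090, and miR-181a-2-3p from MIR181A2, at chr9:124692518-124692539. The chromosome 1 cluster lies within the span of the host gene MIR181A1HG, and the chromosome 9 cluster within the spans of MIR181A2HG and NR6A1. MiR-181c-5p and miR-181d-5p lie at chr19:13874725-13874746 and chr19:13874910-13874932 on the plus strand, within the span of NANOS3.

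Library totals were between 3794799 and 5983577 counts in the input, between 1156261 and 2236535 on the control bait and between 672824 and 1237652 in the PD-L1 3'UTR group. A floor of 3 counts was therefore worth between 0.676 and 4.02 on the scale of CPM, the counts of a miRNA relative to a common library size. PD-L1 3'UTR replicate 1 stood apart in the summed levels of miRNAs listed as markers of several tissues. The summed level of 3 muscle miRNAs was 1834 CPM in it and between 1.58 and 131 CPM in the other 8 libraries, that of 5 blood-cell miRNAs was 1424 CPM against 191 to 586 CPM, and that of 5 epithelial miRNAs was 236 CPM against at most 78.2 CPM. The liver miRNA miR-122-5p had 161 CPM in it and at most 50.4 CPM elsewhere, and the neuron marker 9.91 CPM against at most 1.19 CPM. Single listed miRNAs differed: miR-200c-3p had 42.5 CPM in it against up to 50.7 CPM elsewhere. The MS2 control libraries also held more of the muscle miRNAs than the input, 44.8 to 131 CPM against 1.58 to 4.05 CPM. For miR-122-5p these were 40.1 to 50.4 CPM and 1.58 to 3.42 CPM. The part of such RNA in the results was not tested. Fold changes and differences of ratios that involve the PD-L1 3'UTR group are given with and without PD-L1 3'UTR replicate 1.

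In the input, miR-181a-5p and miR-181b-5p were the main members and were similarly abundant. MiR-181a-5p had 2078, 2165 and 2292 CPM and miR-181b-5p 2145, 2079 and 2206 CPM in replicates 1, 2 and 3. The means were 2178 ± 107 and 2143 ± 63.8 CPM (SD, n = 3 each), and the ranges overlapped. MiR-181a-3p followed with 162 ± 47.3 CPM and miR-181a-2-3p with 118 ± 14.0 CPM (SD, n = 3 each), and the ranges of these partner strands also overlapped. MiR-181d-5p was lower, at 54.6 ± 3.22 CPM (SD, n = 3), and lay below both partner strands in each input library. MiR-181c-5p was barely detected, with 0, 2 and 5 counts in the input, 0 in each control bait library and 6, 3 and 0 on the PD-L1 bait. It did not pass the filter on low counts and was not tested.

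**Figure D1:**
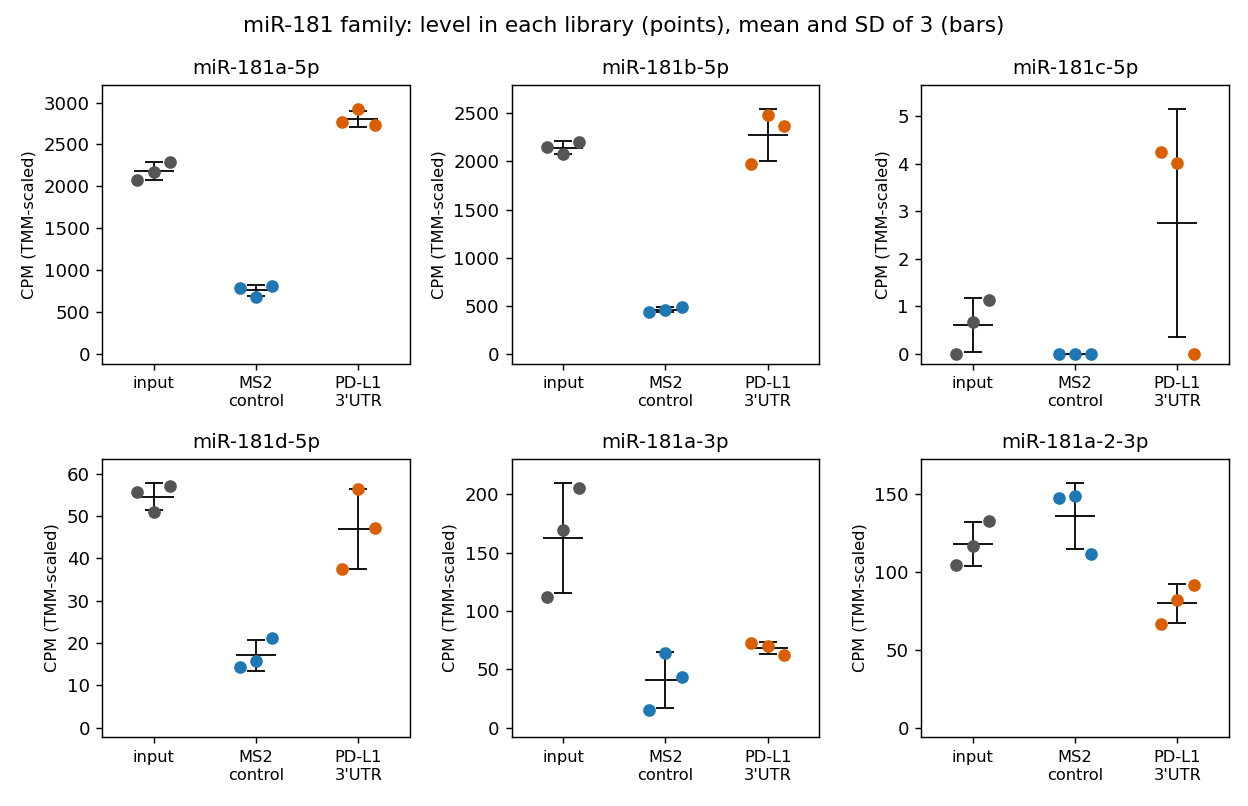
Level of each miR-181 member in each library, on a linear axis of CPM scaled by TMM (trimmed mean of M values) factors. Points are libraries (replicates 1 to 3 from left to right), bars the mean and SD of 3, and the axes differ between panels. The guide strands miR-181a-5p, miR-181b-5p and miR-181d-5p were lowest in the MS2 control, whereas miR-181a-2-3p was lowest in the PD-L1 3'UTR group.

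Setting the PD-L1 bait against the control bait asks which miRNAs had a higher CPM on the PD-L1 bait. It cannot tell the sequence of the bait from its amount. All 3 tested guide strands were higher on the PD-L1 bait, whereas miR-181a-2-3p was lower. MiR-181a-5p had 789, 680 and 807 CPM on the control bait and 2762, 2918 and 2733 CPM on the PD-L1 bait. The lowest PD-L1 3'UTR library thus exceeded the highest MS2 control library by a wide margin. The log2 fold change was 1.89 ± 0.12 (SE), a 3.70-fold rise (edgeR quasi-likelihood test, Benjamini-Hochberg adjusted p = 3.43e-07).

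MiR-181b-5p had 434, 452 and 486 CPM on the control bait and 1975, 2482 and 2367 CPM on the PD-L1 bait, again without overlap. Its log2 fold change of 2.31 ± 0.13, a 4.97-fold rise, was the largest among the tested members (adjusted p = 1.44e-07). MiR-181d-5p rose from 14.2, 15.9 and 21.2 CPM to 37.5, 56.3 and 47.2 CPM. Its groups did not overlap, and its log2 fold change was 1.46 ± 0.26 (adjusted p = 0.000653), from 22, 40 and 28 counts in the MS2 control. Summed over the 4 guide strands, the family held 1233 ± 83.1 CPM on the control bait and 5129 ± 342 CPM on the PD-L1 bait (SD, n = 3 each), a ratio of 4.16, or 4.30 without PD-L1 3'UTR replicate 1.

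Neither partner strand among the members was called higher. MiR-181b-3p, a partner strand outside the members, is described further below. MiR-181a-2-3p had 147, 149 and 111 CPM on the control bait and 66.5, 81.8 and 91.4 CPM on the PD-L1 bait. Every PD-L1 3'UTR library lay below every control library, and the log2 fold change was -0.77 ± 0.21 (adjusted p = 0.00931). MiR-181a-3p had 15.5, 63.8 and 43.1 CPM against 72.2, 69.8 and 62.4 CPM. Its groups overlapped, MS2 control replicate 1 was far below the others, and the log2 fold change of 0.72 ± 0.43 did not pass the test (adjusted p = 0.166). The interval of 1 SE on either side ran from a small to a more than 2-fold difference, so the data do not show that it was the same in both groups.

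In total, 3 of the 5 tested members were called higher and 1 lower. Of all 408 miRNAs tested, 31.4% were called higher and 28.7% lower, so calls in either direction were common. The groups did not overlap for 4 of the 5 members, nor for 65.7% of all 408. The median log2 fold change of the 5 members was 1.46 and that of all 408 was 0.02. MiR-181a-5p and miR-181b-5p lay at the 81.0th and 85.7th percentile of the 408 fold changes, so other miRNAs rose more. Without PD-L1 3'UTR replicate 1 the log2 fold changes were 1.93 for miR-181a-5p, 2.44 for miR-181b-5p, 1.63 for miR-181d-5p and -0.61 for miR-181a-2-3p, and these 4 passed the test. MiR-181a-3p, at 0.70, again did not (adjusted p = 0.214).

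**Figure D2:**
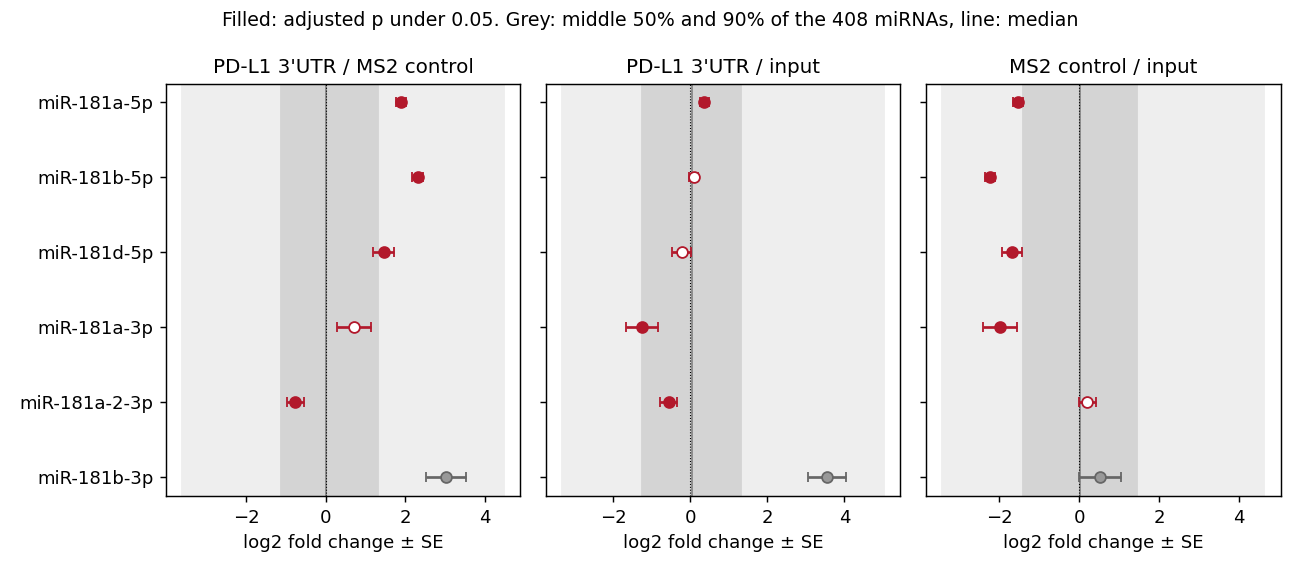
Log2 fold change ± SE (x axis) of the tested members and of miR-181b-3p, the other arm of MIR181B1, in the 3 comparisons. Filled points of the members had an adjusted p under 0.05 and open points did not, and miR-181b-3p, in grey, is shown as a description. The dark and light grey bands hold the middle 50% and 90% of the 408 miRNAs and the grey line their median. The 3 guide strands lie to the right of the dark band against the MS2 control, near 0 against the input, and to the left of it in the MS2 control against the input.

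The control bait itself was compared with the input to show the background of the resin. All 3 tested guide strands and miR-181a-3p lay below the input on the control bait, and miR-181a-2-3p did not pass the test. MiR-181b-5p fell from 2143 ± 63.8 to 458 ± 26.0 CPM (SD, n = 3 each), a log2 fold change of -2.23 ± 0.13 (adjusted p = 4.11e-07). MiR-181a-5p fell from 2178 ± 107 to 759 ± 68.8 CPM, a log2 fold change of -1.52 ± 0.12 (adjusted p = 2.16e-06).

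MiR-181d-5p had 55.8, 50.9 and 57.0 CPM in the input against 14.2, 15.9 and 21.2 CPM in the MS2 control, a log2 fold change of -1.68 ± 0.26 (adjusted p = 0.000202). MiR-181a-3p had 112, 169 and 206 CPM in the input, above the 15.5 to 63.8 CPM of the MS2 control in every library, and its log2 fold change was -1.98 ± 0.43 (adjusted p = 0.00187). In contrast, the input values of miR-181a-2-3p, 104, 117 and 132 CPM, overlapped the 111 to 149 CPM of the control (log2 fold change 0.20 ± 0.21, adjusted p = 0.396). Of the 5 tested members 4 were thus called lower and 0 higher, where 37% of all 408 miRNAs were called lower and 32.8% higher. The groups did not overlap for these 4, nor for 75.5% of all 408. The median log2 fold change was -1.68 over the members and 0.02 over all 408.

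The scaling of the libraries bears on this comparison. When libraries were scaled by their totals instead, the median of all 408 miRNAs moved by 0.63 on the log2 scale, and the share of higher calls went from 47.0% to 65.7%. The 4 members called lower were also called lower on that scale, with log2 fold changes of -1.60 for miR-181b-5p, -0.89 for miR-181a-5p, -1.06 for miR-181d-5p and -1.38 for miR-181a-3p. MiR-181a-2-3p then became higher in the MS2 control, by 0.84 (adjusted p = 0.00457), where the shifted median was 0.65.

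Against the input, the question was whether a miRNA had a higher CPM in the PD-L1 3'UTR group than in the lysate. CPM are relative to each library, so the amounts retained were not compared. The tested guide strands stood close to the input, and the partner strands among the members were lower. MiR-181a-5p was called higher, with 2733 to 2918 CPM over 2078 to 2292 CPM and a log2 fold change of 0.36 ± 0.12 (adjusted p = 0.0195). This was a 1.29-fold difference, and the call did not hold under most alternatives: without PD-L1 3'UTR replicate 1 the value was 0.32 (adjusted p = 0.0737), and it was also lost on leaving out any input library, any other PD-L1 3'UTR library, or MS2 control replicate 1 or 3, where it fell as low as 0.18.

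MiR-181b-5p had 1975 to 2482 CPM on the PD-L1 bait, a range that held all 3 input values, and its log2 fold change was 0.09 ± 0.13 (adjusted p = 0.56). MiR-181d-5p, with 37.5 to 56.3 CPM against 50.9 to 57.0 CPM, also overlapped (log2 fold change -0.22 ± 0.25, adjusted p = 0.434). MiR-181a-3p was lower than the input in every library, with a log2 fold change of -1.25 ± 0.42 (adjusted p = 0.0217). MiR-181a-2-3p was lower as well, by -0.56 ± 0.21 (adjusted p = 0.0363), and this call was lost without PD-L1 3'UTR replicate 1 (adjusted p = 0.0858), input replicate 3 (0.0637) or MS2 control replicate 2 (0.0591).

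Of the 5 tested members 1 was thus called higher and 2 lower, where 34.1% and 32.4% of all 408 miRNAs were. The groups did not overlap for these 3, nor for 74.8% of all 408. The median was -0.22 over the members and 0.04 over the 408. Without PD-L1 3'UTR replicate 1 the log2 fold changes were 0.13 for miR-181b-5p and -0.14 for miR-181d-5p, neither called, and -1.36 for miR-181a-3p, still called lower (adjusted p = 0.0220). Library totals moved the median of all 408 by 0.57, raised the share of calls that were higher from 51.3% to 68.3%, and changed what was called. On that scale miR-181a-5p (0.93, adjusted p = 9.58e-05) and miR-181b-5p (0.65, adjusted p = 0.000695) were called higher and no member lower, with miR-181a-3p at -0.68 (not called) and miR-181a-2-3p at 0.01. The shifted median was 0.60, so miR-181b-5p lay near it. As a plain share of all counts, miR-181a-5p was between 0.306% and 0.323% of the PD-L1 3'UTR libraries, between 0.156% and 0.170% of the input and between 0.0767% and 0.0982% of the MS2 control. Against the input, miR-181d-5p (0.34 with library totals) and miR-181a-2-3p thus changed sign with the scaling, whereas miR-181a-5p, miR-181b-5p and miR-181a-3p kept theirs. Against the MS2 control all 5 tested members had the same sign on either scale.

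**Figure D3:**
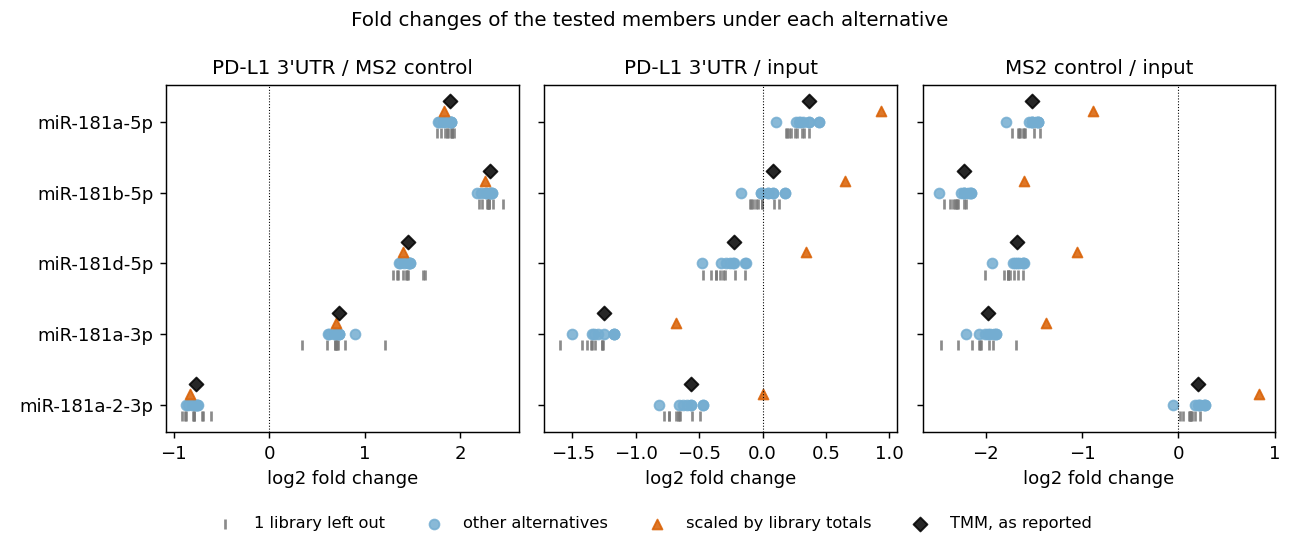
Log2 fold changes (x axis) of the 5 tested members in the 3 comparisons, as reported (diamonds), scaled by library totals (triangles), with 1 library left out (ticks) and under the other alternatives (circles). Against the MS2 control the values of the guide strands stay above 1 throughout, whereas against the input those of miR-181b-5p lie on both sides of 0.

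Ratios between members within a library do not depend on how libraries are scaled. MiR-181b-5p and miR-181a-5p were near parity in the input, with ratios of counts of 1.03, 0.960 and 0.963. The ratio was 0.551, 0.665 and 0.602 in the MS2 control and 0.715, 0.851 and 0.866 on the PD-L1 bait. The 3 groups did not overlap, with the MS2 control lowest and the PD-L1 3'UTR between it and the input. The differences of the mean log2 ratio were 0.42 for PD-L1 3'UTR minus MS2 control, -0.29 for PD-L1 3'UTR minus input and -0.70 for MS2 control minus input. With 3 libraries against 3, the two-sided exact permutation test cannot go below p = 0.1, which each of these reached, and adjusted over the 18 tests of ratios it was 0.18. Without PD-L1 3'UTR replicate 1 the first 2 differences were 0.51 and -0.20.

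The partner strand of the chromosome 9 hairpin also differed relative to miR-181a-5p. The counts of miR-181a-2-3p were 5.03%, 5.40% and 5.78% of those of miR-181a-5p in the input. They were 18.7%, 21.9% and 13.8% in the MS2 control and only 2.41%, 2.80% and 3.34% on the PD-L1 bait. The groups were again apart in all 3 comparisons, and the mean log2 ratio of the PD-L1 3'UTR group differed from that of the MS2 control by -2.65 (exact permutation p = 0.1, adjusted p = 0.18), or by -2.53 without PD-L1 3'UTR replicate 1. From the input it differed by -0.93, or by -0.81 without that library. MiR-181a-5p counts come from both hairpins, so the ratio is not that of 1 hairpin's arms.

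MiR-181a-3p, the partner strand of the chromosome 1 hairpin, was 5.39%, 7.82% and 8.99% of miR-181a-5p in the input and 2.61%, 2.39% and 2.28% on the PD-L1 bait, without overlap. In the MS2 control it was 1.97%, 9.39% and 5.34%, a spread that overlapped the input and the PD-L1 3'UTR group. The mean log2 ratio on the PD-L1 bait differed from the input by -1.57, or by -1.62 without PD-L1 3'UTR replicate 1, and from the MS2 control by -0.94, or by -0.99 without it. The ratio of miR-181a-2-3p to miR-181a-3p was 0.932, 0.691 and 0.643 in the input, 9.5, 2.33 and 2.58 in the MS2 control and 0.922, 1.17 and 1.47 on the PD-L1 bait. The MS2 control was apart from both other groups, whose ranges overlapped. The mean log2 ratio on the PD-L1 bait differed from the MS2 control by -1.71, or by -1.54 without PD-L1 3'UTR replicate 1, and from the input by 0.64, or by 0.81 without it. The highest value rested on 24 counts of miR-181a-3p in MS2 control replicate 1. Without that library the difference between MS2 control and input was 1.71 in place of 2.36 on the log2 scale.

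MiR-181d-5p was 2.68%, 2.35% and 2.49% of miR-181a-5p in the input, 1.80%, 2.33% and 2.62% in the MS2 control and 1.36%, 1.93% and 1.73% on the PD-L1 bait. The PD-L1 3'UTR group was apart from the input only, by -0.59 on the log2 scale, or by -0.45 without its replicate 1, and it differed from the MS2 control by -0.44, or by -0.30 without that library. Among the 18 ratio tests, the groups did not overlap in 10, and none could pass the threshold in this design. No share was computed over ratios of other miRNAs, so this count has no background of its own kind. For the levels of single miRNAs, the groups did not overlap for between 65.7% and 75.5% of all 408, depending on the comparison. Ratios with miR-181c-5p rest on at most 6 counts and showed no separation.

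**Figure D4:**
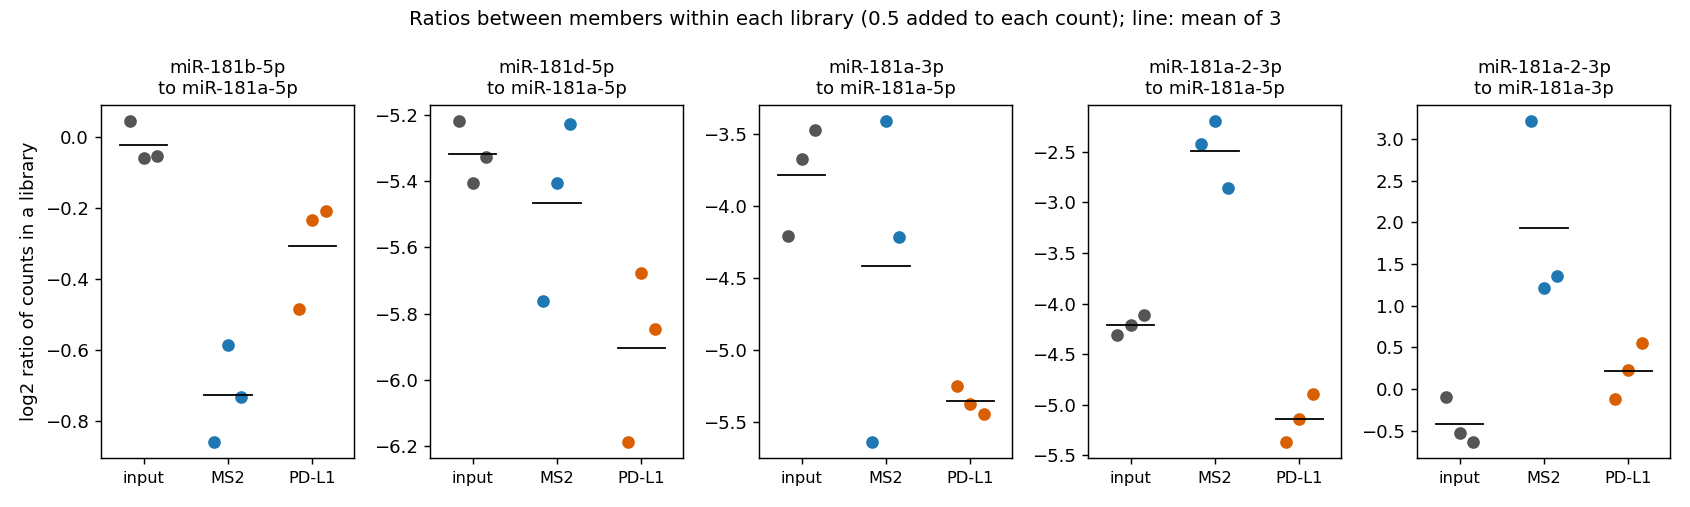
Log2 ratio of counts between members (y axis, 0.5 added to each count) in each library, for 5 pairs. Points are libraries and lines the mean of 3, and the axes differ between panels. The ratio of miR-181a-2-3p to miR-181a-5p was highest in the MS2 control and lowest on the PD-L1 bait, and that of miR-181b-5p to miR-181a-5p fell from the input to the PD-L1 3'UTR to the MS2 control.

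The remaining 4 arms of the hairpins were scarce. Only miR-181b-3p, the partner strand of MIR181B1, passed the filter, and it did so through the PD-L1 3'UTR group, where it was high, so its values are a description. Its sequence is shown because it was the most abundant of these arms on the PD-L1 bait.
miR-181b-3p: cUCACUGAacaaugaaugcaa

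MiR-181b-3p had 10, 11 and 18 counts in the input, 14, 8 and 4 in the MS2 control and 34, 39 and 66 on the PD-L1 bait. These were 2.63 to 4.06 CPM, 3.03 to 9.05 CPM and 24.1 to 52.3 CPM. The PD-L1 3'UTR libraries thus lay above all others, although they were shallower than every input library. The fitted log2 difference was 3.03 from the MS2 control and 3.55 from the input, and without PD-L1 3'UTR replicate 1 these were 3.34 and 3.78. No test is given for it, since the filter depended on the group in which it was high. MiR-181c-3p had 21, 22 and 31 counts in the input, 0 in each MS2 control library and 2, 0 and 2 on the PD-L1 bait. Floors of 3 counts per library bound its level on the TMM scale. On that scale it was at least 3.69-fold lower for the control bait and at least 2.39-fold lower for the PD-L1 bait than in the input. Library totals moved the medians of these comparisons by 0.63 and 0.57 on the log2 scale, so the bounds do not carry over to that scaling. In the input miR-181c-3p exceeded its guide miR-181c-5p, which had 0, 2 and 5 counts. MiR-181b-2-3p had at most 8 counts in a library and miR-181d-3p had 1 count in all.

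The 2 loci of a guide strand have the same mature sequence, and their reads were listed apart in the count table. For miR-181a-5p the chromosome 9 locus held between 49.3% and 51.6% of the counts, and the exact 95% binomial interval (Clopper-Pearson, counting error only) included 50 in all 9 libraries. For miR-181b-5p it held between 48.5% and 53.7%, and the interval left out 50 in 5 of 9 libraries. The mature sequences cannot tell which copy was transcribed, and the split may come from how reads were assigned to equal matches, which was not tested.

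The miRNAs whose pattern over the 9 libraries was most like that of miR-181a-5p were outside the family. Likeness was the root mean square difference of log2 CPM, each centred on its own mean, among miRNAs with a mean of at least 10 CPM, and is a description. The closest were miR-138-5p (0.20), miR-30a-5p (0.21), miR-101-3p (0.22), miR-19b-3p (0.23) and miR-671-3p (0.26). MiR-138-5p, for instance, had 278 ± 32.8 CPM in the input, 76.7 ± 15.0 CPM on the control bait and 325 ± 22.8 CPM on the PD-L1 bait (SD, n = 3 each). MiR-181b-5p came 8th (0.31) and miR-181d-5p 9th (0.31). With all 408 tested miRNAs ranked whatever their level, miR-181a-3p came 91st (0.85) and miR-181a-2-3p 170th (1.11).

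Finally, the 3'UTR of CD274 was searched for the letters that pair with the members' seeds. The transcript's 3'UTR of 2692 bases was read from GENCODE on GRCh37, on the sense strand. An 8mer of the guide seed is TGAATGTA, a 7mer-m8 TGAATGT and a 7mer-A1 GAATGTA, the 7mers being contained in the 8mer. None of the 3 occurred, nor did the 6mer GAATGT within them. Windows of the same length were the first bases of the longest 3'UTR of each gene with one at least that long, CD274 included. Of 5487 such windows, 8.77% held the 8mer, 29.2% the 7mer-m8, 20.5% the 7mer-A1 and 59.1% the 6mer. The same search found 0 matches of any of the 4 kinds for the seeds of miR-181a-3p and miR-181a-2-3p. Among the 4 other arms it found 1 match, a 6mer of miR-181c-3p, GATGGT, at bases 1493 to 1498 of the 3'UTR, and 47.7% of the windows held that 6mer. How far the bait covered this 3'UTR was not given in the sources used here, and sites other than these letters were not searched.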

How the data were processed

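Small RNA of 9 ES-2 libraries was analysed from the deposited count table, which holds unnormalised counts of reads at each mature locus. Per the submitters' processing notes, the authors used cutadapt 1.18, Bowtie2 2.2.6 and featureCounts 1.6.3 on hg38. The treatment of reads with several matches was not given in the sources used here. Counts were summed over the loci of a name. The members, gene lists and tests were chosen with earlier results of these data known, and the text names the 6 members, the other arms and sharers of their seeds, and the 5 miRNAs most like miR-181a-5p.

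In edgeR 4.0.16 (R 4.3.3), filterByExpr kept 408 of 2652 names, which held at least 99.7% of each library's counts. Libraries were scaled by TMM, and 1 model of 3 group means was fitted (glmQLFit, glmQLFTest, two-sided, Benjamini-Hochberg, threshold 0.05). Standard errors were the log2 fold change over the square root of F. The fit was checked on simulated data. Ratios used exact permutation tests (scipy 1.17.1). Floors and intervals cover counting error only, as PCR copies are not separate molecules. DESeq2 1.42.0 and other alternatives are given in the closing section. Replicates within a group differed beyond sampling noise, and no column of other samples was used.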

Additional observations from a re-analysis of the deposited data

How the results depend on the processing

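Of 330 values of single miRNAs under alternatives, 293 kept their direction and side of the threshold, 20 were no longer called, 3 became called and 14 changed sign. The 330 include values of miR-181b-3p, for which no test is given, so its unchanged calls do not speak for the members. That miRNA gave 1 of the changes of sign and none of the lost calls. Against the MS2 control 3 to 4 members were higher on leaving out a library and 1 was lower, but 0 were lower with no filter, where miR-181a-2-3p was at -0.76 (adjusted p = 0.0564; range over its alternatives 0.00468 to 0.0564). With no filter 4 were higher, and of the 1500 miRNAs then tested 178 were higher and 145 lower. The fourth was miR-181c-5p, with 9 counts on the PD-L1 bait and 0 in the control libraries. MiR-181a-3p became the fourth without MS2 control replicate 2 (1.21, adjusted p = 0.0384). In the MS2 control against the input 4 members were lower throughout, and 1 was higher with library totals.

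Against the input, the number of members higher with the PD-L1 3'UTR was 2 with library totals and 0 with no filter, with a mean of at least 10 CPM, with only the groups compared and with separate loci, and ranged from 0 to 1 on leaving out a library. The number lower was 1 with DESeq2's size factors and with DESeq2, 0 with library totals, and ranged from 1 to 2 on leaving out a library. Of all miRNAs, 201 of 1500 tested were lower with no filter, against 132 of 408 as reported. Of the 14 changes of sign of single miRNAs, 10 were of miR-181b-5p against the input, reported at 0.09. MiR-181b-5p against the input was -0.17 with no filter, -0.014 with only the groups compared, -0.013 for its chromosome 1 locus, and ranged from -0.10 to 0.13 on leaving out a library. MiR-181d-5p (from -0.22 to 0.34) and miR-181a-2-3p (from -0.56 to 0.0060) turned positive with library totals, which moved the median of all 408 miRNAs by 0.57. In the MS2 control against the input miR-181a-2-3p was -0.057 with no filter. Leaving out a library, miR-181b-3p ranged from -0.25 to 0.83, the log2 ratio of miR-181c-5p to miR-181a-5p from -0.26 to 1.28 and that of miR-181d-5p to miR-181a-5p from -0.27 to 0.00046. The cause of the changes of sign under the settings other than library totals was not tested.

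Replicate numbers did not pair the libraries: deviations of same-numbered libraries correlated from -0.18 to 0.13. With the replicate number as a block, 126 miRNAs were higher and 117 lower against the MS2 control (128 and 117 without it), 135 and 128 against the input, and 129 and 147 in the MS2 control against the input. No member's call changed, but miR-181a-2-3p against the input was barely called (edgeR adjusted p = 0.04999). Depth limits miR-181c-5p, miR-181b-2-3p and miR-181d-3p, with at most 8 counts in a library. They did not pass the filter on low counts. No conclusion on a difference between groups is drawn for them, also not from the no-filter call or the ratios of miR-181c-5p.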
